A study of Homo sapiens with 4 samples.

Results

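The genes described here carry proteins into mitochondria and look after them once inside: the translocase subunits whose symbols begin with TOMM or TIMM, the matrix chaperonin pair HSPD1 and HSPE1, the cochaperone GRPEL1, the proteases LONP1, CLPP, CLPX, YME1L1 and AFG3L2, the small proteins CHCHD2, CHCHD3 and CHCHD4, and the prohibitins PHB and PHB2. They were taken by a rule on symbols that uses no measured value, written with earlier results of these data known, and number 37 of the 57820 rows of the deposited gene table. A second, nearly empty row with the symbol TIMM10B was left out. RNA came from the U87 human glioma cell line after 6 h in low glucose. The shGlud1 group carried a short hairpin RNA against GLUD1, a mitochondrial enzyme that interconverts glutamate and 2-oxoglutarate, and the shNT group, given as control in the labels, carried a hairpin abbreviated NT. Both groups were kept in DMEM with bovine calf serum and both received the low-glucose treatment, so no library shows these genes in ordinary glucose. Each group had 2 libraries, and the sources used here do not say whether these were separate cultures, whether the carriers were a pool or a clone, or which hairpin sequences were used, so the p-values cover no more than the spread among the libraries, and that spread may be technical.

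Nearly all mitochondrial proteins are made in the cytosol and imported as unfolded chains. The TOM complex of the outer membrane is the common gate. Small chaperones of the intermembrane space escort carrier proteins to the TIM22 complex, while the TIM23 complex and its matrix motor pull in chains with a cleavable presequence. In the matrix, the HSPD1 and HSPE1 chamber folds arrivals, and the proteases of the matrix and inner membrane remove subunits that are damaged or left without a partner. Several of these genes are known targets of heat shock factor and of the mitochondrial stress response, which acts through ATF4, ATF5 and DDIT3, and many are targets of the nuclear respiratory factors NRF1 and GABP.

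Sequence near the gene starts is shown for the chaperonin pair, whose cochaperonin had the largest fall. It is also shown for TIMM22, whose window alone held a composite of DDIT3 and ATF4. The members that hold an NRF1 or GABP core follow (1 stretch for each gene and core). Last come TIMM21 and CLPX, the 2 members with the largest rises. The NRF1 core of TIMM10B lies across the gene start. RefSeq windows on GRCh38.p14, from 250 bases before each gene start to 50 bases after it, were found for 30 of the 37 members, in 33 windows. The members CLPP, GRPEL1, PHB, TIMM8B, TOMM5, TOMM70A and YME1L1 had no entry. All sequences read 5′ to 3′ on the strand of the gene, and capitals mark the motif found.
HSPD1, heat shock element (chr2:197500061-197500090, minus strand): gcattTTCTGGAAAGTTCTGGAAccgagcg
TIMM22, composite of DDIT3 and ATF4 (chr17:997036-997065, plus strand): cgaatctgccgTTGCATCAcagtggctagt
CHCHD4, NRF1 core (chr3:14125003-14125032, minus strand): cagtgtttctGCGCATGCGCgcggcgagac
LONP1, NRF1 core (chr19:5720633-5720662, minus strand): ctgaagccctGCGCATGCGCatcaatgagt
TIMM9, NRF1 core (chr14:58427641-58427670, minus strand): agacacaacacGCATGCGCgccaagaaact
TOMM7, NRF1 core (chr7:22822954-22822983, minus strand): atcgcaaccacGCATGCGCctactactgcc
TIMM10B, NRF1 core (chr11:6481488-6481517, plus strand): agtggcgtacgGCATGCGCcggtggcgtga
TIMM10B, GABP core (chr11:6481444-6481473, plus strand): agcgagaggttACTTCCGGggcggcaccga
CHCHD2, GABP core (chr7:56106648-56106677, minus strand): gaaccacaggaACTTCCGGgttttaaagat
TIMM10, GABP core (chr11:57530749-57530778, minus strand): ggactttcctcCCGGAAGTaacccacgtgc
TOMM20, GABP core (chr1:235128841-235128870, minus strand): gttgactgggaCCGGAAGTggcgtgtgctc
TOMM6, GABP core (chr6:41787603-41787632, plus strand): gccggtagcagCCGGAAGTgccagaccgga
PHB2, GABP core (chr12:6970893-6970922, minus strand): ttgcaacaataCCGGAAGTtgcgctaacgc
TIMM21, 238 bases before the gene with no motif found (chr18:74148273-74148510, plus strand): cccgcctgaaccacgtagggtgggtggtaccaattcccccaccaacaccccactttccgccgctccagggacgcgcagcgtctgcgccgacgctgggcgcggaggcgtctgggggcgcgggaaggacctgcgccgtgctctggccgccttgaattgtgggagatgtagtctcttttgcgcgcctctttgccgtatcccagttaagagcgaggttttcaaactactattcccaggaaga
CLPX, 250 bases before the gene with no motif found (chr15:65185343-65185592, minus strand): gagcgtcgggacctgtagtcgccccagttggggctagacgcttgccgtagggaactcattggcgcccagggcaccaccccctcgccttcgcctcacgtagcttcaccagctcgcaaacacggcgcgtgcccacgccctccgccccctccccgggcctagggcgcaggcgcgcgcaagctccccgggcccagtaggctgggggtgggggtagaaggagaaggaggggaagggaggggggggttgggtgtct

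Motifs were searched on both strands and matches may overlap one another. The heat shock element, made of alternating GAANNTTC and TTCNNGAA pairs that share a unit, was required to have at least 3 units. Among the member windows only that of HSPD1 held one, 1 of 33, against 0.490% of 35116 windows of all genes. HSPD1 and HSPE1 lie head to head on chromosome 2, with annotated starts 105 or 539 nt apart, and the element ends 294 bases before the HSPE1 start, in sequence that longer HSPD1 and HSPE1 transcripts also cover as exon. The NRF1 core GCGCATGC was in 15.2% of member windows, those of CHCHD4, LONP1, TIMM10B, TIMM9 and TOMM7, against 3.05% of all windows. The GABP core ACTTCCGG was in 21.2%, those of CHCHD2, PHB2, TIMM10, TIMM10B, TOMM20 and TOMM6, against 4.14%. The composite TGATGNAA was in 3.03%, the window of TIMM22 alone, against 3.62%. A match describes letters in a window and is not a measured binding site, and PHB2 is counted with 2 overlapping windows.

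Of the 37 members, 36 had enough counts to be tested, and most were lower in shGlud1. TOMM20L, a paralog of TOMM20, had expected counts of 0 and 0 in shNT and 0 and 1 in shGlud1 and was not tested. Changes are log2 fold changes of shGlud1 over shNT with their standard error (SE), from edgeR's quasi-likelihood test with TMM scaling, and a gene counts as changed where its Benjamini-Hochberg adjusted p over all 14616 genes tested is under 0.05. The test called 31 members, against 61.0% of all genes: 26 members fell, against 29.1% of all genes, and 5 rose, against 31.9%. The median log2 change was -0.71 over the members and 0.06 over all genes tested. By at least 2-fold, 9 members fell, against 12.8% of all genes. The scaled levels (CPM, read counts relative to library size) of the groups did not overlap for 33 of the 36 members, against 81.0% of all genes, and TOMM34, TIMM23B and YME1L1 were the members whose groups overlapped. Together the members took up 0.698% and 0.705% of all counts in shNT, and 0.525% and 0.499% in shGlud1. In bulk RNA, a change in how many cells make a transcript and a change in its amount per cell cannot be told apart.

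**Figure D1:**
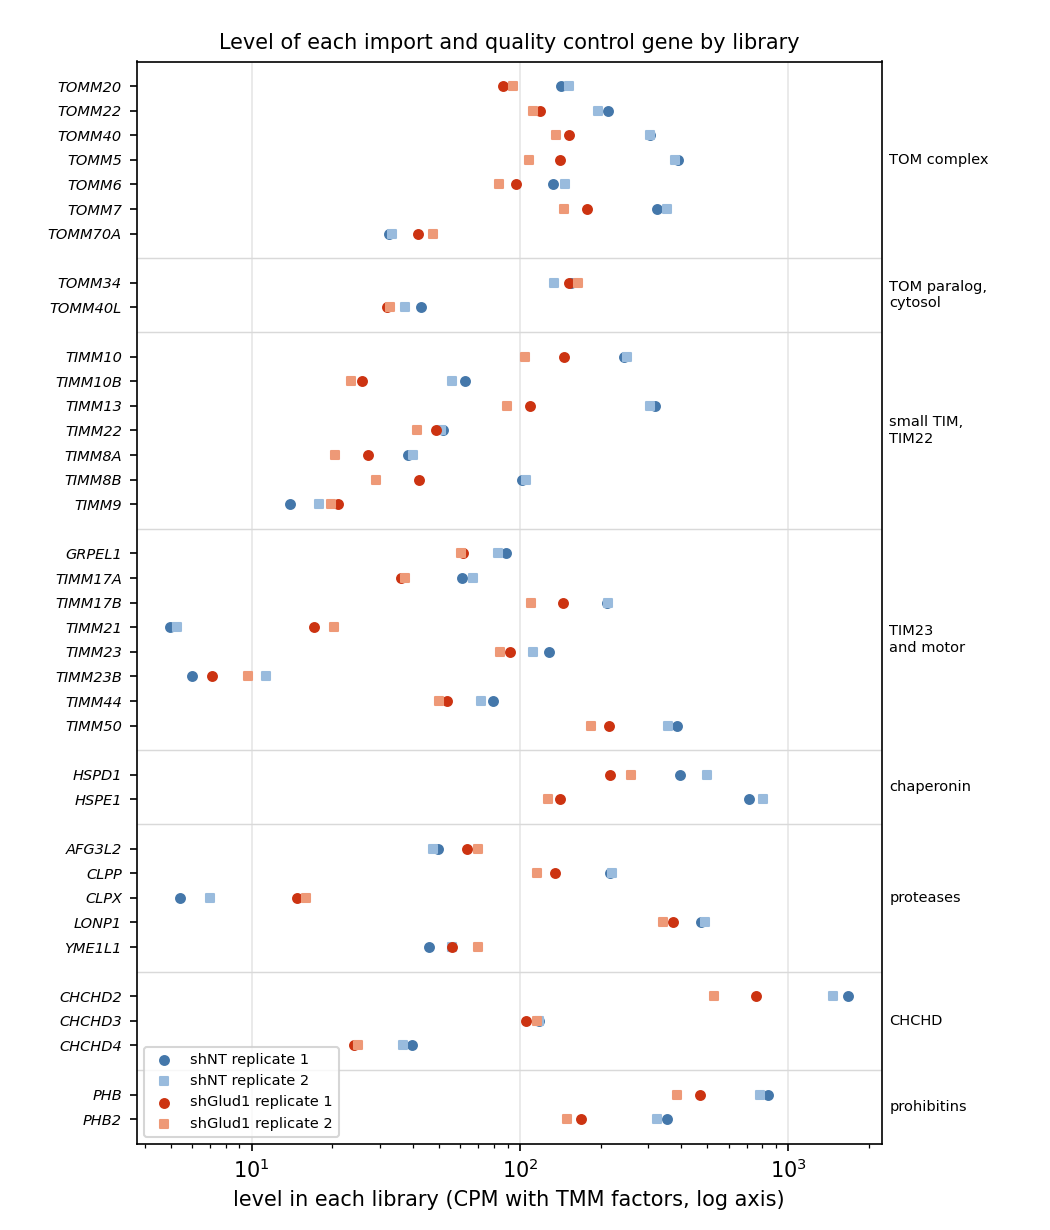
Level of each tested member in each library, in CPM with TMM scaling on a log axis, ordered by role, with 2 points for shNT and 2 for shGlud1. Most members have both shGlud1 points to the left of both shNT points, while TIMM21 and CLPX have both to the right.

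The direction of these counts depends in part on how libraries are scaled. With scaling to the total count in place of TMM, the median over all genes moved from 0.06 to 0.57 and that of the members from -0.71 to -0.19, a shift that such a change of scaling gives to all genes alike. In that setting 15 members fell, against 13.7% of all genes, and 9 rose, against 51.9%. Fold change also moved with transcript length across genes. After a smooth trend on the longest annotated transcript was removed, 22 members fell, against 28.7% of all genes. Another 6 rose, against 27.0%, with medians of -0.41 for the members and -0.01 for all genes. A length was found for 97.6% of the genes tested. TIMM23, among those 22, had none, so no trend was removed from its value. Of the 31 called members, 16 kept their direction and call in all 14 alternative analyses, 14 that fell and 2 that rose. They were TOMM5, TOMM7, TOMM22, TOMM40, TIMM8B, TIMM10B, TIMM13, TIMM50, HSPD1, HSPE1, CLPP, CHCHD2, PHB and PHB2 among those that fell, and TIMM21 and CLPX among those that rose. Over all genes, the share that held in this way was not counted.

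**Figure D2:**
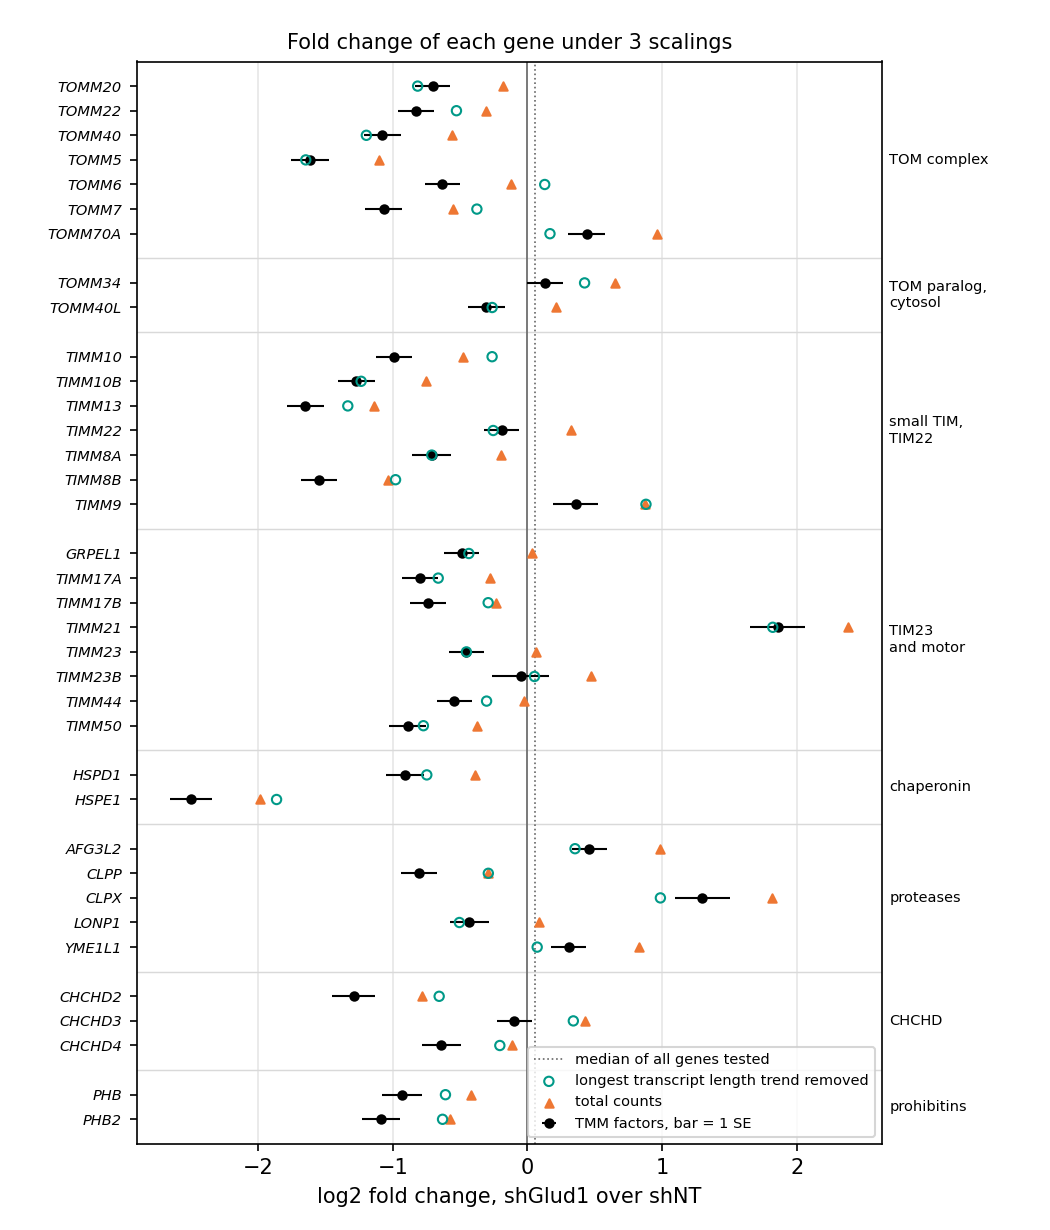
Log2 fold change of shGlud1 over shNT for each tested member, with 1 SE, beside the values with total-count scaling and with the length trend removed. HSPE1 at -2.50 and TIMM21 at 1.86 mark the ends of the range, and total-count values lie to the right of the TMM values.

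In the TOM complex, 6 of 7 subunits fell and 1 rose. TOMM40, the beta-barrel channel through which nearly every precursor passes, had 306 and 304 CPM in shNT and 152 and 136 CPM in shGlud1. Its log2 change was -1.08 (SE 0.14, edgeR adjusted p = 4.11e-14). The small subunits that hold the channel complex together fell by different amounts. TOMM5 had 389 and 378 CPM in shNT and 141 and 108 CPM in shGlud1, a log2 change of -1.62 (SE 0.14, edgeR adjusted p = 1.03e-28) and the largest fall in the complex. Of the exon bases of TOMM5, 14.3% overlap AL138752.2 and 9.33% overlap AL513165.2, both annotated on the same strand. TOMM7 had 325 and 354 CPM in shNT and 178 and 146 CPM in shGlud1, a log2 change of -1.07 (SE 0.14, edgeR adjusted p = 1.49e-13) that was -0.38 with the length trend removed. TOMM6 had 133 and 148 CPM against 97.0 and 83.9 CPM, a log2 change of -0.63 (SE 0.13, edgeR adjusted p = 4.02e-06). All of the exon bases of TOMM6 are also exons of the overlapping annotated gene AL365205.1, and its call was lost with total counts (-0.12) and turned with the length trend removed (0.13, edgeR adjusted p = 0.385).

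The TOM receptors did not move together. TOMM20, the receptor for presequences, had 142 and 153 CPM in shNT and 86.6 and 94.3 CPM in shGlud1, a log2 change of -0.70 (SE 0.13, edgeR adjusted p = 2.94e-07). TOMM22, the central receptor and organizer of the complex, had 213 and 195 CPM against 119 and 112 CPM, a log2 change of -0.83 (SE 0.13, edgeR adjusted p = 3.21e-09). In both receptors each shNT library was above each shGlud1 library. TOMM70A, the receptor for carrier proteins and a docking site for cytosolic chaperones, went the other way, with 32.5 and 33.3 CPM in shNT and 41.8 and 47.4 CPM in shGlud1, a log2 change of 0.44 (SE 0.14, edgeR adjusted p = 0.00302). The rise of TOMM70A was 0.17 with the length trend removed (edgeR adjusted p = 0.292) and missed the threshold without the first shNT library (edgeR adjusted p = 0.0676). The fall of TOMM20 was -0.18 with total counts and 0.14 with the trend on median transcript length removed, in neither case past the threshold. TOMM40L, a paralog of the channel, had 42.9 and 37.4 CPM against 32.0 and 32.9 CPM, a log2 change of -0.31 (SE 0.14, edgeR adjusted p = 0.0444) whose call was lost when any of the 4 libraries was left out. Of the exon bases of TOMM40L, 20.1% overlap NR1I3 on the other strand. TOMM34, a cytosolic cochaperone of import, had 155 and 134 CPM against 153 and 164 CPM. Its log2 change of 0.13 did not pass the test (edgeR adjusted p = 0.395). TOMM34 was past the threshold with total counts (0.65, edgeR adjusted p = 5.11e-07) and with the trend on longest transcript length removed (0.42, edgeR adjusted p = 0.00161), but at -0.11 with that on median length.

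Of the small TIM chaperones and TIMM22, 5 of 7 fell, and TIMM9 and TIMM22 did not pass the test. These chaperones form mixed rings in the intermembrane space, TIMM9 with TIMM10 and TIMM8A with TIMM13. TIMM13 had 319 and 306 CPM in shNT and 109 and 89.8 CPM in shGlud1, a log2 change of -1.65 (SE 0.14, edgeR adjusted p = 7.35e-31). TIMM8B, a close relative of TIMM8A, had 102 and 105 CPM against 42.0 and 29.03 CPM, a log2 change of -1.55 (SE 0.13, edgeR adjusted p = 2.48e-29). TIMM10B, the member that sits on the TIM22 complex, had 62.6 and 55.9 CPM against 25.7 and 23.5 CPM, a log2 change of -1.27 (SE 0.14, edgeR adjusted p = 6.25e-19). In all 3 the shGlud1 libraries lay below the shNT libraries by more than the spread within either group. Some counts in this set may belong to neighbours, since the library kit does not mark strand. On the other strand, NKAPD1 overlaps 30.1% of the exon bases of TIMM8B, and TMPRSS9 overlaps 15.9% of those of TIMM13. On the same strand, LMNB2 overlaps 13.0% of the exon bases of TIMM13, and AC084337.2 overlaps 13.5% of those of TIMM10B.

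TIMM10 had 245 and 251 CPM in shNT and 146 and 104 CPM in shGlud1, a log2 change of -0.99 (SE 0.14, edgeR adjusted p = 1.98e-12). Its ring partner TIMM9 had 13.8 and 17.8 CPM against 21.0 and 19.7 CPM, and its log2 change of 0.36 (SE 0.17) missed the threshold (edgeR adjusted p = 0.0512). Both values moved with the length trend removed, when TIMM10 was at -0.26 (edgeR adjusted p = 0.0584) and TIMM9 at 0.88 (edgeR adjusted p = 1.15e-07). TIMM9 was past the threshold in 9 of the 14 alternative analyses. Of the exon bases of TIMM9, 14.9% overlap KIAA0586. TIMM8A, mutated in deafness-dystonia syndrome, had 38.2 and 39.9 CPM against 27.2 and 20.5 CPM, a log2 change of -0.71 (SE 0.14, edgeR adjusted p = 2.33e-06) that was -0.20 with total counts and no longer past the threshold. TIMM22, the channel that inserts carrier proteins into the inner membrane, had 51.7 and 50.8 CPM against 48.6 and 41.2 CPM, with a log2 change of -0.19 (edgeR adjusted p = 0.201). TIMM22 passed the threshold as a fall without the first shGlud1 library (-0.33, edgeR adjusted p = 0.0317) and with the median length trend removed (-0.68, edgeR adjusted p = 2.16e-06), and as a rise with total counts (0.32, edgeR adjusted p = 0.0308).

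In the TIM23 presequence translocase and its motor, 6 of 8 genes fell, 1 rose and 1 did not pass the test. TIMM21, a subunit that links the translocase to TOM and to respiratory chain assembly, rose. Its expected counts were 68 and 81 in shNT and 341 and 467 in shGlud1, or 4.98 and 5.29 CPM against 17.04 and 20.3 CPM. The change was 3.63-fold, 1.86 on the log2 scale (SE 0.20, edgeR adjusted p = 9.90e-19), and it was 1.82 with the length trend removed. TIMM21 had the largest rise of all members, from a level that in shNT was the lowest among the tested members. Per kilobase of its principal transcript, its mean level went from 1.66 to 6.03 CPM.

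Of the other genes in this group, all but TIMM23B were called lower in shGlud1 with TMM scaling. TIMM50, the receptor that takes over presequences from TOM, had 384 and 357 CPM in shNT and 216 and 184 CPM in shGlud1, a log2 change of -0.89 (SE 0.14, edgeR adjusted p = 1.25e-09). TIMM17A, the channel subunit that is known to be degraded under stress, had 61.0 and 66.7 CPM against 36.0 and 37.3 CPM, a log2 change of -0.80 (SE 0.13, edgeR adjusted p = 9.52e-09). Its paralog TIMM17B had 212 and 214 CPM against 144 and 110 CPM, a log2 change of -0.74 (SE 0.13, edgeR adjusted p = 1.26e-07). None of these 3 had overlapping groups. TIMM44, which anchors the motor to the channel, changed by -0.54 (SE 0.13, edgeR adjusted p = 9.40e-05), and GRPEL1, the nucleotide exchange factor of the motor's HSP70, by -0.49 (SE 0.13, edgeR adjusted p = 0.00043). With total counts the calls of TIMM17A (-0.28), TIMM17B (-0.23), TIMM44 (-0.02) and GRPEL1 (0.03) were lost.

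TIMM23, the core channel subunit, and TIMM23B are near-identical copies, and how their shared reads were split is not given in the sources used here. TIMM23 had 128 and 112 CPM in shNT and 91.7 and 84.0 CPM in shGlud1, a log2 change of -0.45 (SE 0.13, edgeR adjusted p = 0.00108) that was 0.06 with total counts and lost its call without the first shNT library (edgeR adjusted p = 0.118). TIMM23B had 6.01 and 11.3 CPM against 7.10 and 9.68 CPM, with overlapping groups and a log2 change of -0.05 (edgeR adjusted p = 0.85). Both are uncertain for that reason.

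The matrix chaperonin fell, and its lid fell further than its barrel. HSPE1, the cochaperonin that caps the folding chamber, had expected counts of 9749 and 12317 in shNT and 2830 and 2936 in shGlud1, or 714 and 805 CPM against 141 and 127 CPM. Its mean went from 760 ± 64.2 to 134 ± 9.91 CPM (SD, n = 2), a 5.65-fold lower level and a log2 change of -2.50 (SE 0.15, edgeR adjusted p = 9.09e-57). This was the largest fall of any member, and it was -1.98 with total counts and -1.86 with the length trend removed. HSPD1, the barrel, had expected counts of 5392 and 7612 in shNT and 4318 and 5970 in shGlud1, or 395 and 497 CPM against 216 and 259 CPM. Its log2 change was -0.91 (SE 0.14, edgeR adjusted p = 1.09e-09). The raw counts of HSPD1 overlapped between the groups, while the scaled levels did not. As the pair shares its start region, 14.2% of the exon bases of HSPE1 overlap HSPD1 on the other strand, and another 9.71% overlap the readthrough gene HSPE1-MOB4.

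The proteases split by subunit, with 3 that rose and 2 that fell. CLPX, the unfoldase that feeds proteins to the CLPP barrel, had expected counts of 74 and 107 in shNT and 295 and 366 in shGlud1, or 5.42 and 6.99 CPM against 14.7 and 15.9 CPM. The change was 2.46-fold, 1.30 on the log2 scale (SE 0.20, edgeR adjusted p = 9.90e-10). CLPP, the peptidase barrel, had 217 and 221 CPM against 135 and 115 CPM, a log2 change of -0.81 (SE 0.13, edgeR adjusted p = 9.41e-09) that was -0.29 both with total counts and with the length trend removed. The partners of this protease thus changed in opposite directions, from levels that differed widely. Per kilobase of principal transcript, the mean level of CLPX went from 1.32 to 3.26 CPM and that of CLPP from 189 to 108 CPM.

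LONP1, the main ATP-dependent protease of the matrix, had 473 and 490 CPM in shNT and 373 and 341 CPM in shGlud1, a log2 change of -0.43 (SE 0.14, edgeR adjusted p = 0.00572). Its call was lost without the first shNT library (edgeR adjusted p = 0.0903) or the second (edgeR adjusted p = 0.13), and the value was 0.08 with total counts and -0.28 with the median length trend removed, neither past the threshold. Both inner membrane proteases rose in edgeR's test, though neither call held in every alternative. Of the exon bases of AFG3L2, 12.6% overlap TUBB6 on the other strand. AFG3L2, which works on the matrix side, had 49.6 and 47.3 CPM against 63.5 and 69.8 CPM, a log2 change of 0.46 (SE 0.13, edgeR adjusted p = 0.00111) that missed the threshold without the second shNT library (edgeR adjusted p = 0.0599) and with the median length trend removed (0.27, edgeR adjusted p = 0.074). YME1L1, which works on the intermembrane side and is known to cleave OPA1 and TIMM17A, had 45.9 and 55.8 CPM against 55.8 and 70.04 CPM. Its groups overlapped slightly, and its log2 change was 0.31 (SE 0.13, edgeR adjusted p = 0.0331). That call was lost under DESeq2, with RLE factors and with the length trend removed (0.07, edgeR adjusted p = 0.654). The call was also lost without the first shNT library and without the second shGlud1 library. As each library was left out, the log2 change ranged from 0.14 to 0.45.

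Among the CHCHD proteins, small members of the intermembrane space with paired cysteines, 2 of 3 fell. CHCHD2, which also acts on the promoter of a respiratory chain gene, was the member with the most CPM in shNT, with 1672 and 1467 CPM against 756 and 528 CPM in shGlud1. Its log2 change was -1.29 (SE 0.16, edgeR adjusted p = 5.94e-15) and -0.66 with the length trend removed. Per kilobase of principal transcript the mean level of CHCHD2 went from 1742 to 712 CPM, and that of HSPE1 from 799 to 142 CPM. CHCHD4, the oxidoreductase that traps small TIM chaperones by forming their disulfides, had 39.6 and 36.7 CPM against 24.1 and 24.9 CPM, a log2 change of -0.64 (SE 0.14, edgeR adjusted p = 2.45e-05). That call was lost with total counts (-0.12) and with the length trend removed (-0.21, edgeR adjusted p = 0.203). CHCHD3, a subunit of the cristae-shaping complex, had 118 and 118 CPM against 105 and 116 CPM and a log2 change of -0.10 (edgeR adjusted p = 0.530), which was 0.34 with the length trend removed (edgeR adjusted p = 0.0129).

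Both prohibitins fell. PHB and PHB2 alternate in large rings of the inner membrane that hold the AFG3L2 protease and stabilize new subunits. PHB had 839 and 787 CPM in shNT and 468 and 384 CPM in shGlud1, a log2 change of -0.93 (SE 0.15, edgeR adjusted p = 3.28e-09). PHB2 had 354 and 325 CPM against 170 and 150 CPM, a log2 change of -1.09 (SE 0.14, edgeR adjusted p = 4.72e-14). Neither gene's groups overlapped. Of the exon bases of PHB, 25.1% overlap the antisense gene AC091180.3.

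The ratio of the expected counts of a pair within a library does not depend on how libraries are scaled. It can still move with transcript length, since the genes of a pair differ in length. In every pair below whose ratios did not overlap, the gene with the longer longest transcript gained. With the length trend removed, CLPX was at 0.99 and CLPP at -0.29, and HSPE1 was at -1.86 and HSPD1 at -0.75. How far length had a part in the ratios was not tested. The pairs were picked after their values had been seen, so the ratios describe the libraries and carry no test. HSPE1 to HSPD1 was 1.81 and 1.62 in shNT and 0.656 and 0.492 in shGlud1. CLPX to CLPP was 0.0250 and 0.0317 in shNT and 0.109 and 0.138 in shGlud1. In both pairs the groups were far apart, the chaperonin ratio lower and the protease ratio higher in shGlud1. TIMM21 to TIMM50 went from 0.0130 and 0.0148 to 0.0790 and 0.110, and TOMM70A to TOMM20 from 0.229 and 0.218 to 0.483 and 0.503. Among the ring chaperones, TIMM9 to TIMM10 went from 0.0565 and 0.0711 to 0.145 and 0.189, and TIMM8A to TIMM13 from 0.12 and 0.13 to 0.249 and 0.228. Pairs whose ratios overlapped between the groups were TIMM8B to TIMM13, TIMM17B to TIMM17A, and AFG3L2 to YME1L1. The ratio of PHB2 to PHB was 0.422 and 0.412 in shNT and 0.362 and 0.389 in shGlud1, without overlap but with little distance between the groups.

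**Figure D3:**
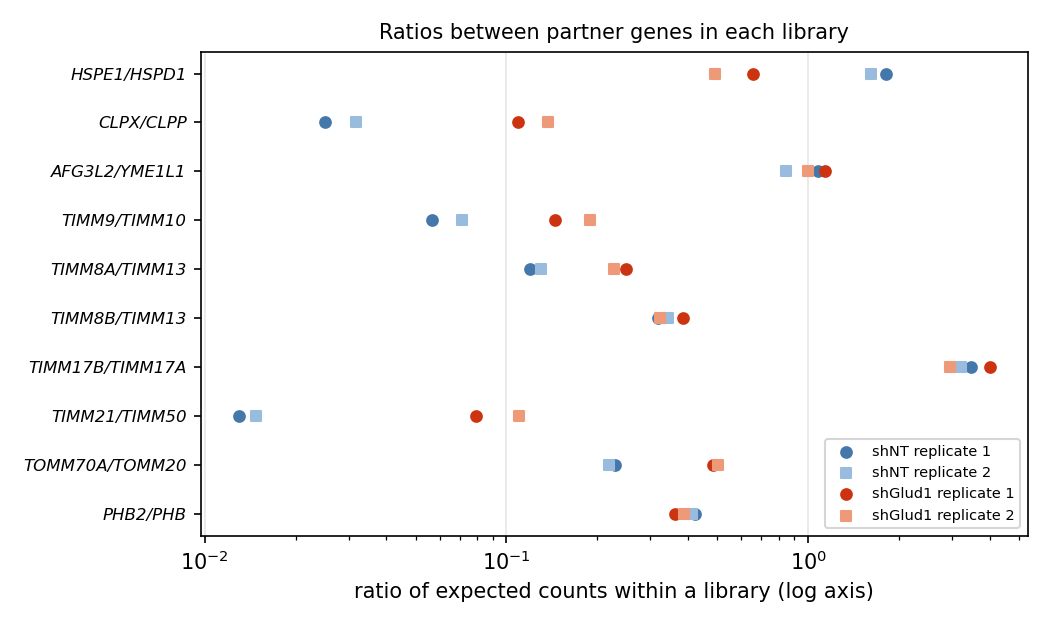
Ratio of expected counts within each library for pairs of members with related roles, on a log axis, with 2 points per group. HSPE1 to HSPD1 is lower in shGlud1, while CLPX to CLPP, TIMM21 to TIMM50, TOMM70A to TOMM20, TIMM9 to TIMM10 and TIMM8A to TIMM13 are higher.

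The members' transcripts are short, and length moved with fold change in these libraries. The longest annotated transcript had a median of 2455 nt over the 35 tested members with a length, against 3374.5 nt over all tested genes with one. It was 2040 nt for members that fell and 4127 nt for members that rose. The Spearman correlation of length with log2 fold change was 0.475 over the 35 members and 0.447 over all genes tested with a length, a description across genes that share the same 4 libraries. TIMM23 had no length by its identifier. By the length of the principal transcript, the correlation over the members was 0.557. How far length itself, RNA quality or library preparation had a part in the members' changes was not tested.

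**Figure D4:**
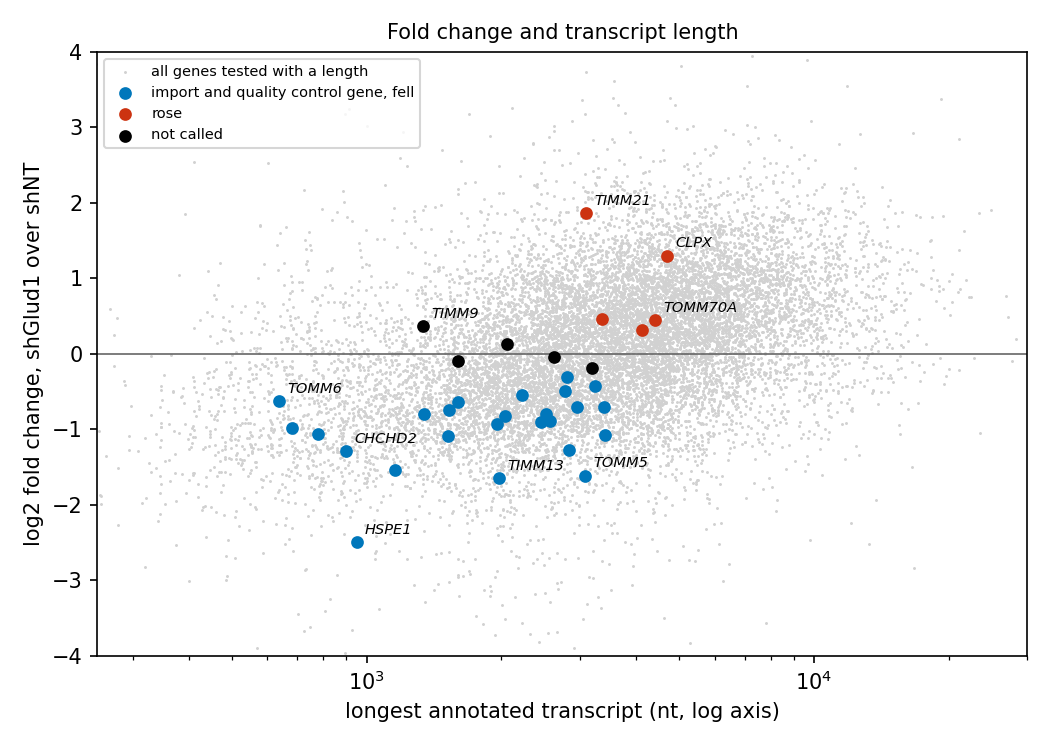
Log2 fold change of shGlud1 over shNT against longest annotated transcript in nt (log axis) for all tested genes with a length (grey) and the members (coloured), of which 87 of 14266 genes lie beyond the axes. Longer genes lie higher, and HSPE1 and TIMM21 lie below and above most genes of similar length.

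Other genes of the import and quality control system were mixed in direction. The exception was a list of the intermembrane disulfide pathway and small cysteine-rich proteins, most of which fell. Of 21 further translocase, motor and processing genes, 7 rose and 8 fell, with a median log2 change of -0.02, and with total counts 11 rose and 6 fell, with a median of 0.50. PAM16, a J-like regulator of the motor, was at -1.71 (SE 0.14) and DNAJC15, a J-protein of the same motor, at -0.99 (SE 0.13), while the motor's HSP70 itself, HSPA9, was at 0.47 (SE 0.14) and the peptidase MIPEP at 0.75 (SE 0.18). HSPA9 lost its call with the length trend removed and without the first shNT library. Of 16 genes of the intermembrane disulfide pathway, which receives small cysteine-rich proteins, 13 fell and 2 rose, with a median of -0.67. With total counts 7 fell and 3 rose. With the longest length trend removed 9 fell and 3 rose, with a median of -0.48. GFER, the oxidase that recharges CHCHD4, was at -1.49 (SE 0.13) and CHCHD5 at -1.58 (SE 0.13), while AIFM1, the docking partner of CHCHD4, was at 0.46 (SE 0.13) and CHCHD10, the paralog of CHCHD2, at 0.44 (SE 0.17). The call of AIFM1 was lost without the second shNT library and with the median length trend removed (0.21). That of CHCHD10 was lost under DESeq2 and without the first or second shNT library or the first shGlud1 library.

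Of 9 genes of cristae shape and membrane scaffolds, 3 rose and 4 fell, and with total counts 5 rose and 2 fell. OPA1, the inner membrane fusion protein, was at 1.72 (SE 0.17) and IMMT, the core of the cristae junction complex, at 1.43 (SE 0.13). C19orf70, another subunit of that complex, was at -1.51 (SE 0.15) and STOML2, a scaffold related to prohibitins, at -0.99 (SE 0.15). Of 7 further proteases and chaperones, 2 rose and 3 fell, and with total counts 3 rose and 2 fell. SPG7, the partner of AFG3L2, was at 1.06 (SE 0.14) and the presequence-degrading PITRM1 at 0.74 (SE 0.13), while the chaperones DNAJA3 and CLPB were at -0.96 (SE 0.13) and -0.90 (SE 0.13).

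All 6 genes listed as factors of the mitochondrial stress response fell, with a median of -1.38. DDIT3 had 745 and 763 CPM in shNT and 71.2 and 73.1 CPM in shGlud1, a log2 change of -3.39 (SE 0.16). ATF4 had 1061 and 956 CPM against 293 and 283 CPM, a log2 change of -1.81 (SE 0.15), and ATF3 was at -2.61 (SE 0.14). ATF5 had 109 and 113 CPM against 59.5 and 54.4 CPM, a log2 change of -0.96 (SE 0.13). These 4 also fell with total counts and with the length trend removed. CEBPB at -0.42 and the heat shock factor HSF1 at -0.40 were at 0.10 and 0.12 with total counts and lost their calls, as both did without the second shNT library, HSF1 without the second shGlud1 library and CEBPB with the longest length trend removed (-0.10). Of 9 mitophagy genes tested, 2 rose and 2 fell, and with total counts 6 rose and the other 3 did not pass the threshold. BNIP3L, a mitophagy receptor, was at 1.02 and FBXL4, which controls receptor levels, at 1.20, a value of 0.56 with the median length trend removed and then not past the threshold (edgeR adjusted p = 0.0614). The receptor FUNDC1 and the ubiquitin ligase MUL1 were at -0.71 and -0.48, values that were not past the threshold with total counts (-0.20 and 0.04), nor was FUNDC1 with the longest length trend removed (-0.15).

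Of 15 genes of mitochondrial content and its regulation, 6 rose and 3 fell, with a median of 0.05, and with total counts 9 rose and 1 fell, with a median of 0.57. The citrate synthase gene CS, whose activity is a common measure of mitochondrial mass, had 28.4 and 21.0 CPM in shNT and 53.2 and 48.6 CPM in shGlud1, a log2 change of 1.05 (SE 0.14), and TFB1M, a ribosomal RNA methyltransferase, was at 1.31 (SE 0.16). POLRMT, the mitochondrial RNA polymerase, was at -0.92 (SE 0.14) and ESRRA, a nuclear receptor of mitochondrial genes, at -0.72 (SE 0.13), which was -0.20 with total counts and no longer past the threshold (edgeR adjusted p = 0.0967). The genes counted in these lists passed the same threshold in edgeR's test. With TMM scaling they are to be read beside the 29.1% of all genes that fell and the 31.9% that rose. The tallies with total counts are to be read beside 13.7% of all genes that fell and 51.9% that rose.

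The targeted gene GLUD1 had 78.1 and 76.5 CPM in shNT and 34.0 and 44.5 CPM in shGlud1, a log2 change of -0.98 (SE 0.13, edgeR adjusted p = 1.26e-12), or -0.45 with total counts. Libraries held 16546849 to 18537314 expected counts, and libraries of a group differed by more than counting error. The U87 markers VIM, CD44, NES, TNC and FN1 were all present and summed to 3799 and 3537 CPM in shNT and 6021 and 6514 CPM in shGlud1. Of 6 markers of blood, epithelial, liver and muscle cells with a row, none had enough counts to be tested: they summed to 0.879 and 0.588 CPM in shNT and 0.250 and 0.304 CPM in shGlud1, and MYH7 was at 0 in all 4 libraries.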

How the data were processed

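The deposited values are expected counts (estimated reads per gene), and 20.1% of those above 0 are fractional. The submitters' processing notes name Bowtie 0.12.2 and mm8, a mouse build, although all 57820 rows carry human identifiers. The build behind the counts is therefore uncertain, and the counting program is not given in the sources used here. Per the labels' protocols, poly-A RNA was sequenced as paired reads from a TruSeq V2 kit, without molecular identifiers. Every row named a gene.

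Counts were rounded, filtered with filterByExpr (minimum count 10), scaled by TMM (factors 0.826 and 0.845 for shNT, 1.15 and 1.24 for shGlud1) and compared with the robust quasi-likelihood test of edgeR 4.0.16 in R 4.3.3, with no replicate block, over the 4 libraries. SE is the absolute log2 fold change over the square root of F. Groups came from the titles of the samples. Counts of the libraries within a group differed beyond sampling noise (chi-square per degree of freedom 6.00 for shNT, 15.3 for shGlud1), and each was used as a replicate. The biological coefficient of variation was 10.3%.

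The members and lists were chosen with earlier results of these data known. Named were every member, GLUD1, all stress response factors and, of each further list, up to 2 called genes in each direction by lowest p. Alternatives were DESeq2 1.42.0, limma-voom (3.58.1), upper-quartile and RLE factors, scaling by total counts, no filter, a filter of 1 CPM, the replicate number as a block, each library left out, and removal of a lowess trend (span 0.3) on longest or median transcript length. Lengths came from GENCODE 29 and promoters from RefSeq. Other steps used Python 3.11.15, numpy 2.4.6, pandas 2.3.3, scipy 1.17.1 and matplotlib 3.10.9.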

Additional observations from a re-analysis of the deposited data

How the results depend on the processing

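With total counts in place of TMM factors, 15 members fell and 9 rose, against 26 and 5. Over all genes tested, 13.7% fell and 51.9% rose with total counts, against 29.1% and 31.9% with TMM factors. When each library was left out in turn, 23 to 26 members fell and 3 to 5 rose. Each such fit has fewer libraries, so its counts do not show that the number that rose rests on any library in particular. Signs turned with total counts for CHCHD3 (0.43), GRPEL1 (0.031), LONP1 (0.084), TIMM22 (0.32), TIMM23 (0.065), TIMM23B (0.47), TOMM40L (0.21), CEBPB (0.10), HSF1 (0.12) and MUL1 (0.037). With the trend on longest transcript length removed they turned for CHCHD3 (0.34), TIMM23B (0.052) and TOMM6 (0.13), and with that on median length for TIMM23B (0.040), TOMM20 (0.14), TOMM34 (-0.11) and YME1L1 (-0.060). TIMM23B, at -0.05 with all libraries, also turned without the second shNT library (0.48) and without the first shGlud1 library (0.13), and ranged from -0.43 to 0.48 as each was left out. Apart from what each alternative changes by construction, the cause was not tested. Of the 31 called members, most kept direction and call whichever library was left out, a share not counted over all genes.

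The labels do not say that replicate numbers pair the libraries, and the deviations of same-numbered libraries from their group means had a correlation of 0.041 across genes. With the replicate number as a block, 26 members fell and 6 rose, against 4301 and 4745 of the 14616 genes tested. With 2 libraries in a group, a p above the threshold does not show that a gene was the same in both, and members with few counts, such as TIMM23B, have wide errors.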
